A study of Homo sapiens with 4 samples.

Results

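MT-CO1, MT-CO2, MT-CO3, MT-CYB, MT-ATP6 and MT-ATP8 are the genes of the human mitochondrial genome that encode subunits of respiratory chain complexes III and IV and of the ATP synthase, complex V. They were taken by name, without use of their expression values, and are 6 of the 26726 genes in the deposited tables. RNA was sequenced from 2 ATAD3A knockout (KO) and 2 parental (WT) libraries of HN12, a cell line of head and neck squamous cell carcinoma (HNSCC), with no drug or other agent in the labels. ATAD3A is an ATPase of the mitochondrial inner membrane, and the comparison addresses what its loss does to gene expression in these cells. The KO cells descend from single cells edited by CRISPR/Cas9, which clone or clones gave the libraries is not stated in the sources used here, and differences between a clone and its parental population cannot be told apart from the loss of ATAD3A. The study's methods describe independent duplicate cultures. The libraries hold 18943547 and 16805766 gene counts for KO and 15173766 and 13569971 for WT.

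Human mitochondrial DNA is transcribed from both strands into long RNAs that run across many genes. Most cuts fall at the transfer RNAs lying between the mRNAs, though none lies between MT-ATP6 and MT-CO3, which share a base. The cut RNAs are then polyadenylated. The level of each mature mRNA therefore depends on both transcription and stability. MT-CO1, MT-CO2 and MT-CO3 encode the catalytic core of cytochrome c oxidase, MT-CYB encodes cytochrome b of complex III, and MT-ATP6 and MT-ATP8 encode membrane subunits of the ATP synthase. All other subunits of these complexes are encoded in the nucleus and imported.

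ATAD3A had 702 and 492 counts in the KO libraries and 1802 and 1471 in the WT libraries, and was lower in KO (log2 fold change −1.70 ± 0.091 SE, adjusted p = 1.53e-17, edgeR). Its paralog ATAD3B had 2892 and 2325 counts in KO and 1122 and 1128 in WT (log2 fold change 0.96 ± 0.072 SE, adjusted p = 1.723e-13, edgeR). Reads shared between these near-identical paralogs are an uncertainty in both values. All 7 squamous epithelial markers examined were present in every library. Their summed level was 1654 and 1655 RPKM in KO (read counts scaled by gene length and library total) and 571 and 569 in WT, and the one with the most counts in every library was KRT5, the basal keratin, with 45495 and 40025 counts in KO and 6233 and 5437 in WT. Of the 7, KRT5, KRT14, KRT6A and KRT17 rose and EPCAM, TP63 and CDH1 fell. The part of this difference between the cells in the mitochondrial values was not tested. Markers of immune, endothelial and fibroblast cells summed to between 2.17 and 3.03 RPKM per library, and most of that came from COL1A1, with 159 to 228 counts. PTPRC, CD68 and COL1A2 had at most 9 counts in any library, and VWF at most 27. ACTA2 had 9 and 10 counts in KO and 19 and 15 in WT. COL1A1, VWF and ACTA2 had enough counts to test, and 0 of the 3 were called. Fewer cells of a type and less RNA per cell cannot be told apart in such bulk libraries.

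The gene sequences are printed where they bear on what the counts can resolve. The 6 genes are annotated on the plus strand of chromosome M in GRCh38 (GENCODE release 29). They are single-exon coding genes, and positions come from that build and not from hg19, the build the submitters' processing notes name. MT-ATP8 (chrM:8366-8572) and MT-ATP6 (chrM:8527-9207) share 46 bases, and MT-ATP6 shares 1 base with MT-CO3 (chrM:9207-9990). The same bases are read in different frames. In the following, capitals mark bases that belong to both neighbours.
MT-ATP8: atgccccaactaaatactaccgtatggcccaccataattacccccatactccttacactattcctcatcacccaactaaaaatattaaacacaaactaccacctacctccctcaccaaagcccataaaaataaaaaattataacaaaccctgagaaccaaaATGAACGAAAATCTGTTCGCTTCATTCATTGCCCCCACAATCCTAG
MT-ATP6, first 60 bases: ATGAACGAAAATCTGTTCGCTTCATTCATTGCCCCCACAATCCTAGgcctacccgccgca
MT-ATP6 to MT-CO3: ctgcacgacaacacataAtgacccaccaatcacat

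A read of 50 nt that touches the 46 shared bases lies on both genes at once. Of the 158 stretches of 50 nt in MT-ATP8, 112 touch no base of MT-ATP6. How the counting treated reads on both genes is not given in the sources used here. Levels of MT-ATP8 and comparisons of MT-ATP8 with MT-ATP6 carry that limit.

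The remaining genes are MT-CO1 (chrM:5904-7445), MT-CO2 (chrM:7586-8269) and MT-CYB (chrM:14747-15887). The gene lengths implied by the deposited counts and RPKM values equal the annotated lengths for all 6. The ends of the genes differ, and the last bases are shown with the stop letters in capitals.
MT-CO1: cccgtatacataaaatctAGA
MT-CO2: gggcccgtatttaccctaTAG
MT-CO3: atctattgatgagggtctT
MT-ATP6: tacctgcacgacaacacaTAA
MT-ATP8: tcattgcccccacaatccTAG
MT-CYB: aaaatactcaaatgggccT
MT-CO3 and MT-CYB end 1 base beyond a whole codon, and textbook knowledge has the poly(A) tail complete their stop codons. MT-CO1 ends in AGA, which is read as the end of the protein in human mitochondria.

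By listed level per length, all but MT-ATP8 were among the highest of all genes, as the plot of levels shows. MT-CO2 reached 8169 and 8158 RPKM in KO and 9162 and 8479 in WT and ranked 1 of all 26726 genes in every library. MT-CO1 stood at 5926 and 6317 RPKM in KO and 6814 and 6338 in WT. MT-CO3 stood at 6393 and 6684 RPKM in KO and 6700 and 6184 in WT. These oxidase genes held the top 3 ranks in each library, with MT-CO3 above MT-CO1 in both KO libraries and below it in both WT libraries. Across libraries the levels of MT-CO1 and MT-CO3 overlapped, whereas MT-CO2 lay above both in every library.

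**Figure D1:**
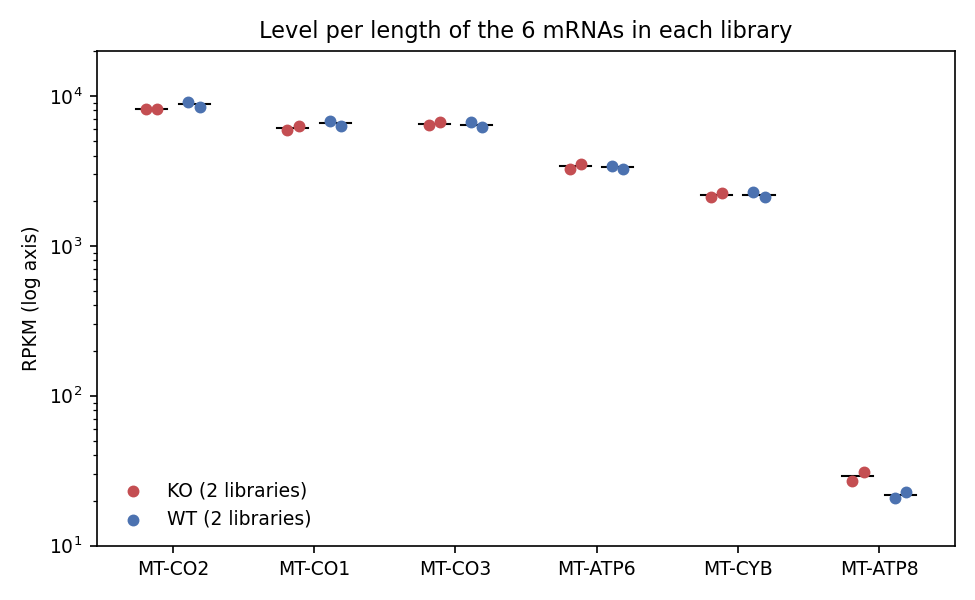
RPKM (log axis) of the 6 mRNAs in each of the 4 libraries, points being libraries and black lines the mean of the 2 libraries of a group. MT-CO2 is highest in every library, and MT-ATP8 lies between 20.7 and 31.0 RPKM, far below the other 5.

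MT-ATP6 had 3246 and 3537 RPKM in KO and 3410 and 3258 in WT, ranking 5 or 6. MT-CYB had 2128 and 2252 RPKM in KO and 2284 and 2109 in WT, ranking between 7 and 12. MT-ATP6 was above MT-CYB and below the oxidase genes in every library. MT-ATP8, which shares a transcript with MT-ATP6, was listed at 27.0 and 31.0 RPKM in KO and 20.7 and 22.8 in WT, from 106, 108, 65 and 64 counts. Per length this is 0.833% and 0.878% of MT-ATP6 in KO and 0.607% and 0.699% in WT. Because the genes share a transcript, the listed value of MT-ATP8 cannot be read as the level of that transcript. Why it was so low was not tested. The depth behind MT-ATP8 is thus very different from that of the other 5, whose lowest count in any library was 30109.

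None of the 6 mRNAs was called different between KO and WT. With edgeR's quasi-likelihood test and Benjamini-Hochberg adjustment over 15104 tested genes, 0 were called higher and 0 lower at an adjusted p under 0.05, whereas 20.4% of all tested genes were called higher and 19.1% lower, or 39.5% in either direction. All 6 passed the filter on low counts. At an unadjusted p under 0.05 the number was 1, MT-CO3, with edgeR and 0 with DESeq2, against 46.6% and 38.2% of all tested genes. With the thresholds of the study's methods, an unadjusted p under 0.05 together with limits on the fold, the numbers were also 0 and 0, against 17.0% and 12.2% of tested genes. The median log2 fold change of the 6 was 0.078, beside −0.0042 over all tested genes. It was 0.019 without WT replicate 2, 0.030 without KO replicate 2, 0.11 without KO replicate 1 and 0.14 without WT replicate 1.

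The 95% confidence intervals given here hold for the reported fit only, and with the length trend removed the values of MT-CO1, MT-CO2, MT-CO3, MT-ATP6 and MT-CYB lay outside them. Among the oxidase genes, MT-CO1 had a log2 fold change of −0.034 ± 0.041 SE (adjusted p = 0.554, edgeR), with a 95% confidence interval of the difference from −7.74% to 3.42%. For MT-CO2 it was −0.042 ± 0.042 SE (adjusted p = 0.462, edgeR), from −8.40% to 2.98%. In CPM (counts scaled to the library total with TMM factors) the KO and WT libraries overlapped for both genes, whereas in RPKM, which is scaled by library totals, both KO libraries lay below both WT libraries for each. MT-CO3 had a log2 fold change of 0.091 ± 0.043 SE (adjusted p = 0.0915, edgeR), from 0.269% to 13.1%, and its KO libraries, at 5142 and 5361 CPM, both lay above the WT libraries at 5139 and 4723. In RPKM its groups overlapped. The gap in CPM between the nearest KO and WT libraries was small beside the distance between the WT libraries.

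For the ATP synthase genes, MT-ATP6 had a log2 fold change of 0.094 ± 0.046 SE (adjusted p = 0.108, edgeR), with an interval from −0.012% to 13.9%, and overlapping groups. MT-ATP8 had the largest value, 0.49 ± 0.25 SE (adjusted p = 0.12, edgeR), and its interval from −1.10% to 98.4% shows how little its 64 to 108 counts per library can resolve. Both KO libraries of MT-ATP8, at 5.74 and 6.57 CPM, lay above both WT libraries, at 4.19 and 4.59 CPM. MT-CYB had a log2 fold change of 0.065 ± 0.046 SE (adjusted p = 0.28, edgeR), from −1.96% to 11.7%, with overlapping groups. In TMM-scaled CPM, 2 of the 6 had KO libraries above WT libraries and 0 had them below, against 34.1% and 34.0% of all tested genes.

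These results depended on how the counts were scaled, as the plot of all settings shows. Scaled by library totals alone, MT-CO1 and MT-CO2 were called lower, at log2 fold changes of −0.10 (adjusted p = 0.0311) and −0.11 (adjusted p = 0.0229, edgeR). That scaling also moved the median of all tested genes from −0.0042 to −0.074, with 23.9% of genes called lower, and relative to the median MT-CO1 stood at −0.029 and MT-CO2 at −0.038, against −0.030 and −0.038 in the reported fit. With the trend of fold change on gene length removed, 5 of the 6 were called lower, between −0.14 for MT-CYB and −0.30 for MT-CO2, and MT-ATP8 was not called at 0.17, where 19.6% of all tested genes were called lower and the median was −0.026. Only 1029 of the 11159 genes behind that trend were as short as the longest of the 6. MT-ATP8 was at its edge, with 1 gene of its length or shorter, which was MT-ATP8 itself. Without the filter on low counts, MT-CO3 (0.10, adjusted p = 0.0157) and MT-ATP6 (0.11, adjusted p = 0.038) were called higher with edgeR, against 11.4% of all genes. Leaving out single libraries moved MT-CO3 between 0.031 and 0.16 and MT-ATP6 between 0.033 and 0.15. These are effect sizes only, as 1 library was left in a group. With limma on log2(RPKM + 1), MT-ATP8 was called higher at 0.40 (adjusted p = 0.0109), against 14.2% of tested genes.

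**Figure D2:**
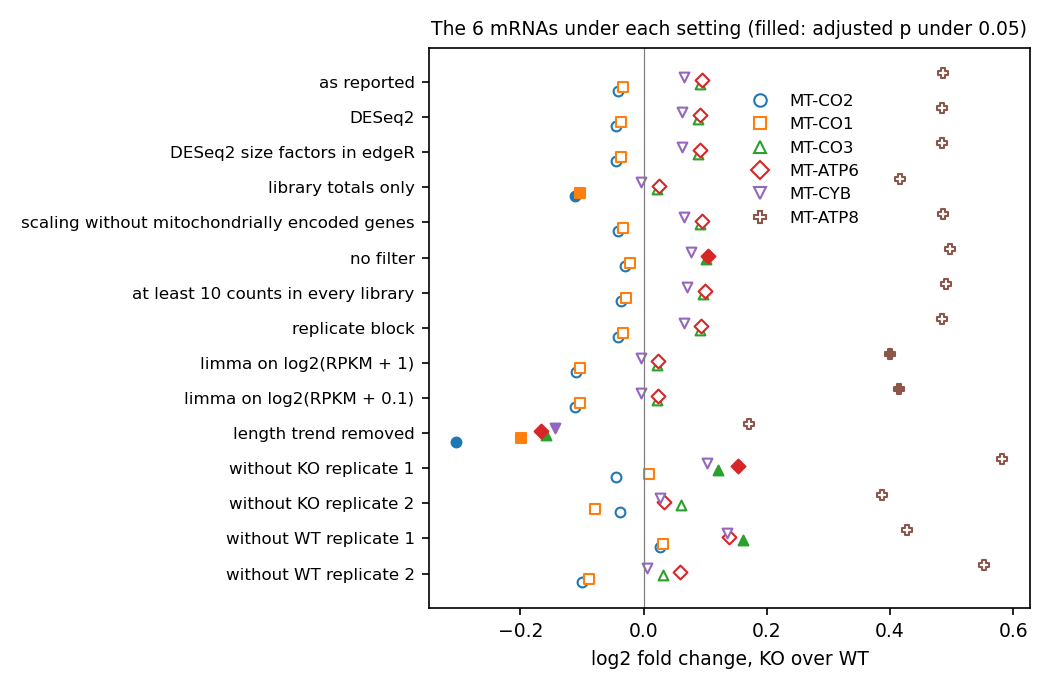
Log2 fold change of KO over WT for each of the 6 mRNAs (symbols) under the reported fit and 14 other settings (rows), filled where the adjusted p was under 0.05. No symbol is filled in the reported fit, and 5 of the 6 are filled below 0 once the length trend is removed.

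Together the 6 mRNAs took 2.44% and 2.55% of gene counts in KO and 2.70% and 2.51% in WT, which overlapped (difference −0.10 percentage points, two-sided exact permutation p = 0.667). The difference was −0.0087 without WT replicate 1, −0.046 without KO replicate 1, −0.16 without KO replicate 2 and −0.20 without WT replicate 2. All 13 mitochondrially encoded mRNAs took 3.75% and 3.97% in KO and 4.04% and 3.80% in WT (exact permutation p = 0.667). With 2 libraries against 2, no permutation p can go below 0.333. Of the summed RPKM, a quantity per length, the 6 took 6.79% and 7.19% in KO and 7.87% and 7.26% in WT, so that both KO libraries lay below both WT libraries (exact permutation p = 0.333). Over the 20 ratios and shares examined in this way, the smallest adjusted p was 0.476 by exact permutation.

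Ratios between the mRNAs do not depend on the scaling of the libraries, though they are not corrected for gene length. The counts of MT-CO3, MT-ATP6 and MT-CYB stood higher against MT-CO1 or MT-CO2 in KO. These pairs were chosen with earlier results of these data known. Each sets a gene with a fitted change above 0 over one with a change below 0, so the direction follows from those changes. MT-CYB to MT-CO2 and MT-ATP6 to MT-CO1 were not among the ratios examined. The log2 ratio of MT-CO3 to MT-CO1 counts was −0.87 and −0.89 in KO and −1.0001 and −1.01 in WT, a difference of 0.13. For MT-CO3 to MT-CO2 the difference was 0.13, for MT-ATP6 to MT-CO2 0.13 and for MT-CYB to MT-CO1 0.0995. In fitted log2 fold changes, MT-ATP6 against MT-CO2 stood at 0.072 without KO replicate 2 and 0.20 without KO replicate 1, while the other 3 differences stayed between 0.094 and 0.17 without any 1 library. In each of these 4 ratios both KO libraries lay above both WT libraries, with the smallest exact permutation p possible, 0.333. The ratio of MT-CO2 to MT-CO1 differed by −0.0075 and that of the neighbours MT-ATP6 and MT-CO3 by 0.0014, both with overlapping groups (exact permutation p = 1). In fitted log2 fold changes without any 1 library, MT-CO2 against MT-CO1 ranged from −0.055 to 0.039 and MT-ATP6 against MT-CO3 from −0.027 to 0.032. With the length trend removed, the difference of fitted log2 fold changes was 0.041 for MT-CO3 and MT-CO1, 0.056 for MT-CYB and MT-CO1 and −0.10 for MT-CO2 and MT-CO1, so that the ratios to the longer MT-CO1 depended on that step. For genes closer in length the differences were then 0.15 for MT-CO3 and MT-CO2, 0.14 for MT-ATP6 and MT-CO2 and −0.0075 for MT-ATP6 and MT-CO3. The log2 ratio of MT-ATP8 to MT-ATP6 counts was −8.63 and −8.55 in KO and −9.08 and −8.88 in WT (difference 0.39, exact permutation p = 0.333), and rests on the low counts of MT-ATP8.

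The mitochondrially encoded subunits of complex I, the NADH dehydrogenase, come from the same primary transcripts, except MT-ND6 from the opposite strand, and are set beside the 6 in the plot along the genome. Of these 7 genes, 4 were called higher in KO and 0 lower with the reported scaling, against 20.4% and 19.1% of all tested genes. DESeq2 called 3 higher, against 15.8% of tested genes, and MT-ND5 was not called there (adjusted p = 0.0932). Library totals alone gave 2 higher, against 16.6%, and limma on RPKM called 1 higher, against 14.2%. Once the length trend was removed, 0 were higher and 3 lower, against 19.4% and 19.6%. MT-ND1, the first mRNA gene in the order of the genome, had 35300 and 32369 counts in KO and 24698 and 22121 in WT (log2 fold change 0.29 ± 0.045 SE, adjusted p = 2.504e-06, edgeR). MT-ND2, next in order, was also higher (0.20, adjusted p = 0.000466, edgeR), as were MT-ND6 (0.16, adjusted p = 0.019) and MT-ND5 (0.12, adjusted p = 0.0384, edgeR). MT-ND5 ranged from 0.043 without KO replicate 2 to 0.20 without KO replicate 1. MT-ND6 ranged from 0.11 without WT replicate 1 to 0.23 without WT replicate 2. MT-ND3 (0.11), MT-ND4 (0.022) and MT-ND4L (−0.033) were not called. MT-ND4L ranged from −0.18 without KO replicate 2 to 0.10 without KO replicate 1, and MT-ND4 from −0.029 to 0.071 in the same fits. In genome order, the called genes MT-ND1 and MT-ND2 stood directly before MT-CO1 and MT-CO2. In the reported fit MT-CO1 and MT-CO2 were the only ones of the 6 with values below 0.

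**Figure D3:**
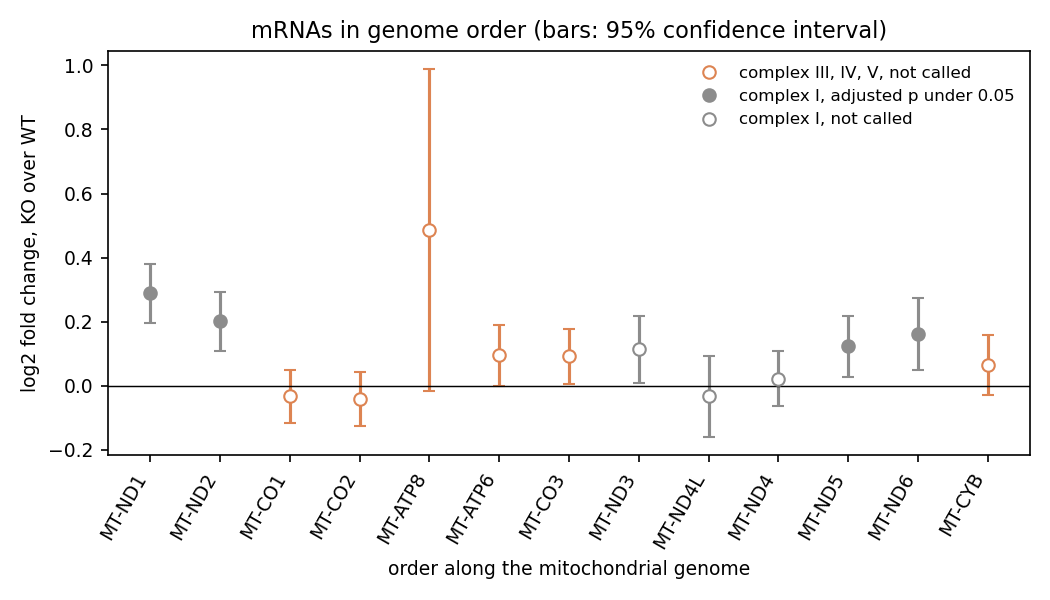
Log2 fold change of KO over WT with 95% confidence intervals for the 13 mitochondrially encoded mRNAs, in their order along the genome (evenly spaced, not to distance), orange for the 6 of complexes III, IV and V. The interval of MT-ATP8, from 64 to 108 counts, is the widest, and filled points (adjusted p under 0.05 with the reported scaling) are MT-ND1, MT-ND2, MT-ND5 and MT-ND6.

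The difference between the 6 mRNAs and the complex I mRNAs was examined as a ratio of summed counts within each library. The log2 ratio was 0.90 and 0.86 in KO and 1.01 and 0.95 in WT, so that the 6 were lower relative to the complex I mRNAs in both KO libraries (difference −0.10, exact permutation p = 0.333, the smallest possible). Computed on RPKM the difference was −0.094, and in counts without the gene with the most counts in each set, MT-CO1 and MT-ND4, it was −0.13. MT-ND4 itself was not called (log2 fold change 0.022). The ratio without MT-ND1 (0.29) and MT-ND2 (0.20), the complex I genes with the largest changes, was not computed. How far the difference rests on MT-ND1 and MT-ND2 was not tested. Each left-out library left a difference between −0.13 and −0.074. The log2 ratio of MT-CO1 to MT-ND1 counts was 2.29 and 2.34 in KO and 2.69 and 2.58 in WT, a difference of −0.32, and that of MT-CO2 to MT-ND1 differed by −0.33, without overlap (exact permutation p = 0.333 for each). MT-ND1 was chosen for these ratios with its change known.

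**Figure D4:**
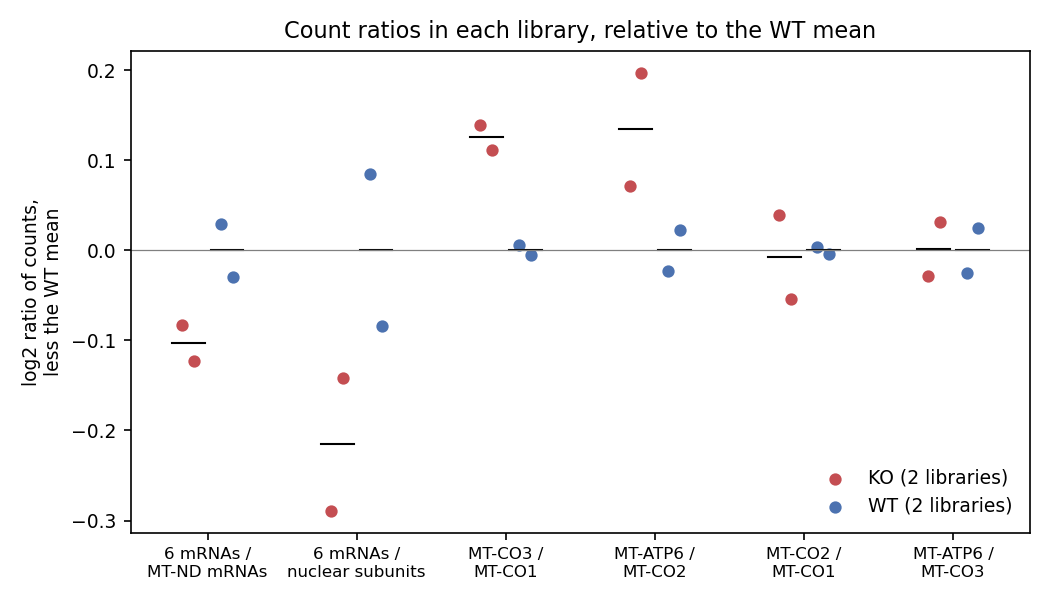
Log2 ratio of counts in each library minus the mean of the 2 WT libraries, for 6 ratios (points are libraries, black lines group means). The KO libraries lie below WT for the 6 mRNAs against complex I mRNAs and against nuclear subunits, above WT for MT-CO3 to MT-CO1 and MT-ATP6 to MT-CO2, and overlap WT for MT-CO2 to MT-CO1 and MT-ATP6 to MT-CO3.

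The nuclear partners of these subunits were counted in the same fit. Of 36 tested nuclear subunit genes of complexes III, IV and V, 25 were called higher and 1 lower in KO, against 20.4% and 19.1% of all tested genes. Between 20 and 25 were higher in the other settings with all libraries, where 11.4% to 21.9% of tested genes were. Their median log2 fold change was 0.38, and 0.20 with the length trend removed. In that setting 20 were higher and 2 lower, against 19.4% and 19.6% of tested genes. In complex III, 6 of 9 were higher and 0 lower (median log2 fold change 0.39), among them UQCRC1, a core subunit, at 213 ± 15.9 CPM in KO and 143 ± 1.94 in WT (SD, n = 2; 0.58, adjusted p = 1.689e-09, edgeR), UQCRQ (0.51) and CYC1, cytochrome c1, the partner of cytochrome b (0.39, adjusted p = 8.826e-07, edgeR). In complex IV, 9 of 11 were higher and 0 lower (median 0.35). COX8A had 300 and 287 counts in KO and 122 and 136 in WT (0.94, adjusted p = 1.567e-05, edgeR), while COX6B1 (0.53) and COX4I1 (0.27), both structural subunits around the mitochondrially encoded core, were also higher.

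In complex V, 10 of 16 were higher and 1 lower (median 0.38). The gene that fell was ATP5F1A (listed as ATP5A1), the catalytic-head alpha subunit, with 3467 and 2966 counts in KO and 5055 and 4562 in WT (−0.83 ± 0.056 SE, adjusted p = 1.29e-14, edgeR). ATP5F1D, the delta subunit of the central stalk, rose (0.71, adjusted p = 4.983e-09), and ATP5F1B, the catalytic beta subunit, was not called at 0.092 (adjusted p = 0.125, edgeR). The log2 ratio of the summed counts of the 6 mitochondrial mRNAs to those of their nuclear partners was 2.30 and 2.45 in KO and 2.67 and 2.502 in WT, lower in both KO libraries (difference −0.22, exact permutation p = 0.333). The difference was −0.26 on RPKM, and −0.13 without WT replicate 1.

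**Figure D5:**
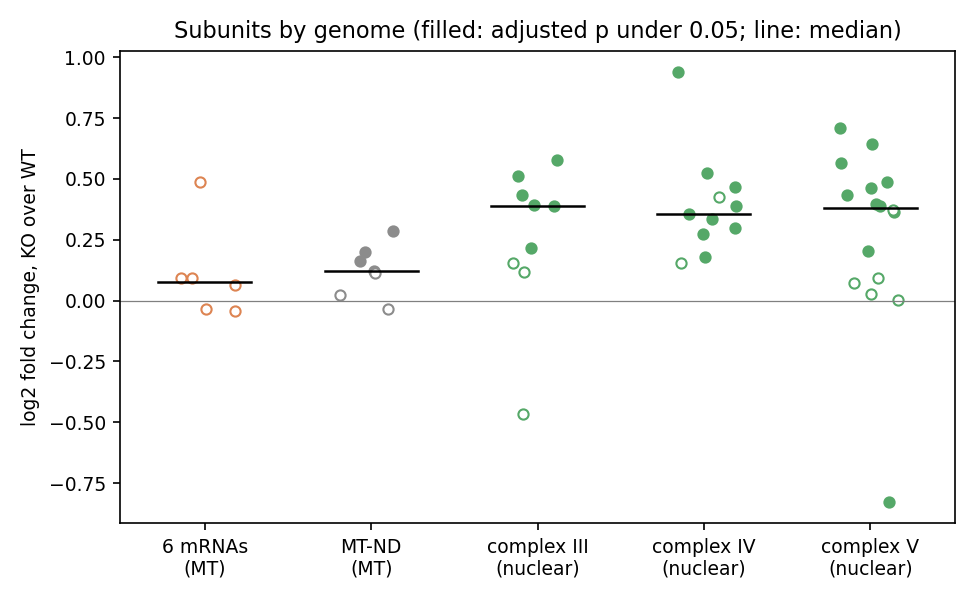
Log2 fold change of KO over WT for each tested subunit gene, filled where the adjusted p was under 0.05, with a line at each set's median. The 6 mRNAs have a median of 0.078 with no filled point, and the medians of the nuclear subunits of complexes III, IV and V lie between 0.35 and 0.39.

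The genes that assemble these complexes were also counted, against the same 20.4% higher and 19.1% lower over all tested genes. For complex III, 3 of 6 assembly genes were higher and 0 lower, led by BCS1L, which inserts the Rieske protein (0.76, adjusted p = 5.364e-06, edgeR), and TTC19 (0.33). For complex IV, 3 of 21 were higher and 1 lower (median 0.019), both below those shares. They included SURF1, which acts early in building the MT-CO1 module (0.70, adjusted p = 1.909e-06, edgeR), and COA4 (0.40). TACO1, a translational activator of MT-CO1, had a value of 0.19 and was not called (adjusted p = 0.0952, edgeR). For complex V, 1 of 3 was higher, TMEM70, at 0.44 (adjusted p = 0.00224, edgeR), and 0 lower.

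Among 27 tested genes for the synthesis, processing and stability of mitochondrial RNA, 6 were higher and 3 lower, a share near the 20.4% of all tested genes for higher and below the 19.1% for lower. Their median was −0.014, and −0.029 without KO replicate 1, 0.14 without KO replicate 2, 0.030 without WT replicate 1 and 0.034 without WT replicate 2. The genes named here were fixed by name or had the largest called changes, and do not stand for the list. TFAM, which packages mitochondrial DNA and helps start its transcription, had 2286 and 1998 counts in KO and 2793 and 2406 in WT, 123 ± 1.55 CPM against 176 ± 5.21 (SD, n = 2; −0.52 ± 0.062 SE, adjusted p = 1.209e-08, edgeR). POLRMT, the mitochondrial RNA polymerase, went the other way, with 1675 and 1520 counts in KO and 916 and 1002 in WT (0.49, adjusted p = 8.511e-06, edgeR). LRPPRC and SLIRP form a complex that protects polyadenylated mitochondrial mRNAs. LRPPRC was at 327 ± 5.59 CPM in KO and 336 ± 18.4 in WT and was not called (−0.035, adjusted p = 0.658), while SLIRP rose from 50.1 ± 1.39 to 80.4 ± 2.93 CPM (0.68, adjusted p = 1.469e-08, edgeR). HSD17B10, a subunit of the enzyme that cuts the 5′ ends of mitochondrial transfer RNAs, rose by a log2 value of 0.65 (adjusted p = 2.511e-07, edgeR). Of 11 genes that maintain mitochondrial DNA, 4 were higher, including the helicase TWNK (0.44) and the topoisomerase TOP1MT (0.38), and 1 was lower.

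The nuclear genome holds copies of these genes, which can draw reads away from them. On chromosome 1, MTATP6P1 (chr1:633696-634376 of GRCh38) matches MT-ATP6 over all 681 bases with 10 differences, or 98.5% identity, and 46.7% of the 50-nt stretches of MT-ATP6 occur identically in an annotated nuclear gene. The window of 60 bases from position 116 of each gene is shown because it holds 3 of the differences (in capitals), while elsewhere up to 141 bases pass without one.
MT-ATP6: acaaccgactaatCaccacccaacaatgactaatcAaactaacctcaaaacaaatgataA
MTATP6P1: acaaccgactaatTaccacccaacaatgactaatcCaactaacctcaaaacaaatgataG
MTATP6P1 was listed with 3504 and 3416 counts in KO and 3059 and 2697 in WT, or 8.37% and 8.44% of the MT-ATP6 count in KO and 8.68% and 8.96% in WT. It was not called (log2 fold change 0.025 ± 0.060 SE, adjusted p = 0.79, edgeR).

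The share of 50-nt stretches found in a nuclear copy was 49.5% for MT-CO1, 30.6% for MT-CO3, 29% for MT-CO2, 8.23% for MT-ATP8 and 1.19% for MT-CYB. Despite the similar sharing, the copy of MT-CO1 on chromosome 1, MTCO1P12, held only 489 and 512 counts in KO and 406 and 396 in WT, between 0.255% and 0.313% of MT-CO1. MTCO2P12 and MTCO3P12 held at most 87 and 43 counts in any library. Reads on the copies and on the mitochondrial genes cannot be assigned to one source from counts alone. With the counts of the copies added, the share of counts on the 6 differed between KO and WT by −0.10 percentage points, as without them.

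Outside the mitochondrial genome, 6137 genes with an average log2 CPM over 5 were compared with the mean profile of the 6, as root mean square differences of centred log2 CPM over the 4 libraries. The 5 closest were TRIM25 (0.00041), SASH1 (0.0050), TMEM127 (0.0068), MTIF2 (0.0073) and UQCRC2 (0.0099), with Pearson r over the 4 libraries between 0.989 and 1.00. That mean profile was 0.010 and 0.098 in KO and −0.020 and −0.089 in WT on the centred log2 scale, and includes the low counts of MT-ATP8 with equal weight. Without MT-ATP8 it was −0.016 and 0.052 in KO and 0.037 and −0.072 in WT, a change of sign in 2 libraries, and the genes closest to that profile were not searched for. With 4 libraries that differ so little many genes come close, and 378 of the 6137 lay under 0.05, against a median of 0.144.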

How the data were processed

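The authors extracted total RNA with Trizol, had libraries made with a NEBNext Ultra II RNA kit and sequenced 50-nt reads. The submitters' processing notes name CASAVA, STAR 2.5, HTSeq, edgeR 3.16.5, DESeq2 2 and hg19. The annotation release, the use of strand and the treatment of reads on overlapping genes or repeated sequence are not given in the sources used here. The study's text and the labels give slightly different media. The authors deposited read counts per gene for 26726 genes, with no normalization, and RPKM values made from the same counts. All value columns were matched to samples by name.

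Samples were grouped by the genotype label into 2 KO and 2 WT libraries. Counts were fitted with edgeR 4.0.16 in R 4.3.3 (filterByExpr, TMM scaling with factors from 0.975 to 1.03, glmQLFit and glmQLFTest, two-sided, no replicate block), with Benjamini-Hochberg adjustment over the 15104 genes left. A call is an adjusted p under 0.05. The biological coefficient of variation was 5.88%. Standard errors came from the fold change and its F statistic. Single values were compared by exact permutation over the 4 libraries. P-values measure the spread between duplicate cultures. In a library, 3 counts correspond to 0.158 to 0.221 CPM. The procedure was tested on simulated data.

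The alternatives were DESeq2 1.42.0, its size factors in edgeR, library totals only, scaling without mitochondrially encoded genes, no filter, a replicate block, a minimum of 10 counts in each library, limma 3.58.1 on log2(RPKM + 1) and log2(RPKM + 0.1), a spline of 4 degrees of freedom on gene length as an offset, and leaving out each library. Running them on the complex I mRNAs, the nuclear subunits and the mitochondrial RNA genes was added after seeing the data, and the other lists were counted in the reported fit only. The 6 genes were taken by name and not by their values. Earlier results of these data were nevertheless known when the 6, the lists, the ratios and the tests were chosen. Named genes are the 6, ATAD3A, ATAD3B, all MT-ND genes and the nuclear copies, from each nuclear list the 2 called genes with the largest change among those with an average log2 CPM over 3 and non-overlapping groups, 8 named regulators and partners (TFAM, POLRMT, LRPPRC, SLIRP, TACO1, COX4I1, CYC1 and ATP5F1B) and the 5 genes most like the 6. Marker genes of the squamous list and of immune, endothelial and fibroblast cells are named beyond this rule. Genes were matched by Ensembl identifier, and sequences and positions were read from GENCODE release 29 on GRCh38. Shared stretches were counted over all 50-nt windows of a gene against annotated nuclear transcripts. MT-RNR1 and MT-RNR2, MTATP8P1, and the markers CD3E, PECAM1 and DCN were not analysed here, and 1 further marker is not reported here.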

Additional observations from a re-analysis of the deposited data

How the results depend on the processing

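With 2 libraries a group, the intervals of the 5 deeply covered genes spanned more than 10 percentage points each, and that of MT-ATP8 far more. By library totals only, 2 of the 6 were called lower (23.9% of all tested genes) and MT-CYB turned to −0.0042, but the median of all genes moved to −0.074 and MT-CYB stood 0.070 above it, against 0.069 in the reported fit. Without the filter 2 were called higher (11.4% of all genes). With limma on log2(RPKM + 1) and on log2(RPKM + 0.1), 1 was called higher in each (14.2% of genes) and MT-CYB turned to −0.0035 in each, with medians of all genes at −0.054 and −0.071. With the length trend removed, 5 were called lower (19.6% of genes), the median moved to −0.16, and MT-CO3 (−0.16), MT-CYB (−0.14) and MT-ATP6 (−0.17) changed sign. Apart from the shift of all genes by library totals and RPKM, the cause was not tested. Leaving out each library in turn leaves 1 library in its group, and only effect sizes are given here for those fits. The log2 fold changes then ranged from −0.088 to 0.031 for MT-CO1, −0.0998 to 0.026 for MT-CO2, 0.031 to 0.16 for MT-CO3, 0.0061 to 0.14 for MT-CYB, 0.033 to 0.15 for MT-ATP6 and 0.39 to 0.58 for MT-ATP8.

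Of the 7 complex I mRNAs, 2 were called higher by library totals only (16.6% of all tested genes) and 1 under each limma setting (14.2%). With the length trend removed 0 were higher (19.4%) and 3 lower (19.6%). Leaving out single libraries gave medians of their log2 fold change between 0.082 and 0.19. Of the nuclear subunits, 2 were lower with the length trend removed (19.6% of all tested genes). Without single libraries the median log2 fold change of the nuclear subunits was between 0.30 and 0.46. Beyond the number, no link between same-numbered KO and WT libraries is given in the sources used here. Their deviations had r = −0.060 over 11159 genes, which cannot show whether they were handled together. With a replicate block MT-CO3 stood at 0.092 (adjusted p = 0.114, edgeR). In that fit 0 of the 6 were called, against 19.9% of all tested genes higher and 18.6% lower. The numbers called with the block were the same as without it for the complex I mRNAs and the nuclear subunits.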
